A study of Mus musculus with 4 samples.

Results

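The 245 genes described here are the mouse microRNA genes whose symbol is Mir followed by a number below 500, with a letter or copy suffix allowed. Genes of the let-7 family were left out. Members were taken from probe sets annotated to that gene alone, which gave 258 probe sets among 41345 in all and 245 of 22180 genes. Where a gene had more than 1 probe set, the one with the highest mean over the 4 arrays stands for it. A further 68 such microRNA genes occur only in probe sets annotated to several genes and are not counted as members, and 5 host transcript genes (symbols ending in hg) were also left out. The measured cells were EO771, a mouse mammary carcinoma cell line. Cells grew for 24 hours to at least 70% confluence, and those of 2 arrays then received 100 ng/ml of recombinant mouse A-FABP, the adipose fatty acid binding protein encoded by Fabp4. Those of the other 2 arrays served as controls with PBS, per the series design. The titles call the arrays biological replicates, and nothing more is said of separate cultures, so p-values measure the spread between these arrays. A description field of the controls mentions A-FABP as well, so their group rests on the titles and source names.

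MicroRNA genes are transcribed as long primary transcripts, either from their own promoter or within the intron or exon of a host gene. The nuclear enzyme Drosha with its partner Dgcr8 cuts out a short hairpin, Xpo5 exports it, and Dicer1 cuts it to a duplex of which a strand is loaded into an Argonaute protein. The loaded strand pairs through its seed, bases 2 to 8 from the 5′ end, with messenger RNAs and lowers their translation and stability. The arrays were hybridised with labelled cRNA made from total RNA. The form of transcript that a microRNA probe set reads (primary transcript, hairpin or host RNA) was left unstated by the labels. The values below are therefore levels of probe sets named for microRNA genes and not of mature microRNAs.

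With A-FABP, 135 of the 245 members lay below the controls and 110 above. Their median log2 difference (A-FABP minus PBS) was -0.04, with quartiles of -0.22 and 0.13. Over all 22180 genes the median was -0.01, with 52.4% below 0 and 47.6% above. The groups did not overlap, in either order, in 103 members (42.0%) and in 53.5% of all genes. In 134 members the difference was smaller than 0.2 in either direction. No member passed an adjusted p under 0.05 in limma (a linear model with moderated variances, fitted over all 41345 probe sets), nor did any other gene: 0 of 22180 genes were called. The lowest adjusted p of a member was 0.296. At an unadjusted p under 0.05 there were 18 lower members, a share of 7.35%, where the share over all genes was 8.24%. There were 19 higher members, a share of 7.76%, where the share over all genes was 4.81%. At the further demand of at least a 1.5-fold difference, 5 members were lower (2.04%, against 0.645% of all genes) and 4 higher (1.63%, against 0.415%). Members were measured at dimmer levels than other genes, and their replicates differed more. The median SD between replicate arrays was 0.133 with A-FABP and 0.130 with PBS for members, against 0.0773 and 0.0690 for all genes. At levels of 7 and above these SDs were 0.103 and 0.078 for members, against 0.046 and 0.042 for all genes. At levels under 4 they were 0.138 and 0.132, against 0.157 and 0.137.

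The members with the lowest p in each direction are shown here by mature sequence, because the results below turn on them and on the sequences that gene copies have in common. Sequences are from RefSeq (GRCm38.p6), whose table held mature sequences for 217 of the 245 members. They run 5′ to 3′ with the seed in capitals. The first 3 lines belong to Mir494, the member with the lowest p of all. In its hairpin (chr12:109715318-109715402, plus strand) capitals mark both mature arms.
Mir494 hairpin: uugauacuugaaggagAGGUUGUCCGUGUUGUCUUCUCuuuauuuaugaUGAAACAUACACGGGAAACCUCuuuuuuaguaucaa
miR-494-5p: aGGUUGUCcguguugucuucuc
miR-494-3p: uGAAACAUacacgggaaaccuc
The next lines give further members on the lower side.
miR-344d-3p (Mir344d-2): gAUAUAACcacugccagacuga
miR-138-5p (Mir138-2): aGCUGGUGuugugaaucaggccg
miR-379-5p (Mir379): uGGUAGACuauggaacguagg
miR-129-5p (Mir129-1): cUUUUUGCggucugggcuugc
miR-185-3p (Mir185): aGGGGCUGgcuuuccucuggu
miR-128-3p (Mir128-2): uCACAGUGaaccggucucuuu
The following members were on the higher side.
miR-199b-3p (Mir199b): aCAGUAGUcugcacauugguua
miR-302a-5p (Mir302a): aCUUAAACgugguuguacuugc
miR-29a-3p (Mir29a): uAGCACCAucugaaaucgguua
miR-186-5p (Mir186): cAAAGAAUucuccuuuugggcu
miR-18a-5p (Mir18): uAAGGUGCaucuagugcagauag
miR-452-5p (Mir452): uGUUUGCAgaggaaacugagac
miR-374b-5p (Mir374b): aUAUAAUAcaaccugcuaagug
Mir467e on the lower side and Mir145a on the higher side have no line here. Among the members with the lowest p whose sequences were compared, the miR-181 family was the one with a seed in common, and it had members on both sides.
miR-181a-5p (Mir181a-1 and Mir181a-2): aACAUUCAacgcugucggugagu
miR-181b-5p (Mir181b-1 and Mir181b-2): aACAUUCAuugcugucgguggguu
miR-181c-5p (Mir181c): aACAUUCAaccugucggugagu
miR-181d-5p (Mir181d): aACAUUCAuuguugucggugggu

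Mir494, from a large imprinted microRNA cluster, read 5.90 and 5.95 on the log2 scale with A-FABP, against 6.70 and 7.003 with PBS (probe set 17278820). Neither A-FABP array reached the lower control. The log2 difference was -0.93 ± 0.13 (SE; 95% CI -1.30 to -0.55; 2 arrays per group), a 1.90-fold lower level (limma unadjusted p = 0.00244, adjusted p = 0.296). It had the most negative difference among the members. The adjusted p ranged from 0.157 to 0.579 over the alternatives tried, and the difference from -1.08 to -0.78.

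Next on the lower side stood Mir344d-2, a copy from a microRNA cluster on chromosome 7, at 7.32 and 7.26 with A-FABP against 7.77 and 7.79 with PBS. Its log2 difference was -0.49 ± 0.08 (limma adjusted p = 0.296). Mir138-2, a copy of a microRNA best known from neurons, read 4.86 and 4.61 against 5.52 and 5.34, a difference of -0.70 ± 0.13. In both genes the groups did not overlap, which was so for 24.5% of members on the lower side and 27.5% of all genes. Mir467e, from the repeat-like cluster within the Sfmbt2 gene, read 7.14 and 7.17 with A-FABP against 7.61 and 7.86 with PBS (-0.58 ± 0.12). Mir129-1 read 4.30 and 4.06 against 4.79 and 4.70 (-0.57 ± 0.12). Mir185 read 7.65 and 7.46 against 7.99 and 7.98 (-0.43 ± 0.10). The replicates of each group lay closer together than the groups in all 3. Mir128-2, a copy of a microRNA abundant in brain, lay at 4.36 and 4.14 against 4.85 and 4.66 (-0.51 ± 0.13).

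On the higher side, Mir181a-1 had the lowest p and is described with its family below. Mir199b, of a family that is abundant in mesenchymal cells, read 4.15 and 4.17 with A-FABP against 3.69 and 3.49 with PBS, a log2 difference of 0.57 ± 0.11. Mir29a, whose family is known to target collagen messages, read 6.58 and 6.48 against 6.01 and 6.11 (0.47 ± 0.09). Its cluster partner Mir29b-1 lay at 0.12 ± 0.14, with overlapping groups, and at -0.032 without PBS control replicate 2. Mir145a, named in textbooks as a microRNA of smooth muscle, read 6.55 and 6.596 against 6.14 and 5.87 (0.56 ± 0.12). Mir302a, of a cluster active in pluripotent cells, read 2.81 and 3.03 against 2.31 and 2.06 (0.73 ± 0.14). The latter values lie far below the array medians of 5.95 to 6.03. Mir186, Mir452, Mir374b and Mir18 had differences of 0.36, 0.37, 0.38 and 0.27, each with both A-FABP arrays above both controls. Such an order was found for 17.6% of members and for 26.0% of all genes. Another probe set, shared by Mir374b and Mir374c, lay at -0.013 ± 0.24 with overlapping groups. The limma adjusted p was 0.296 to 0.302 for the 20 members of both directions.

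**Figure D1:**
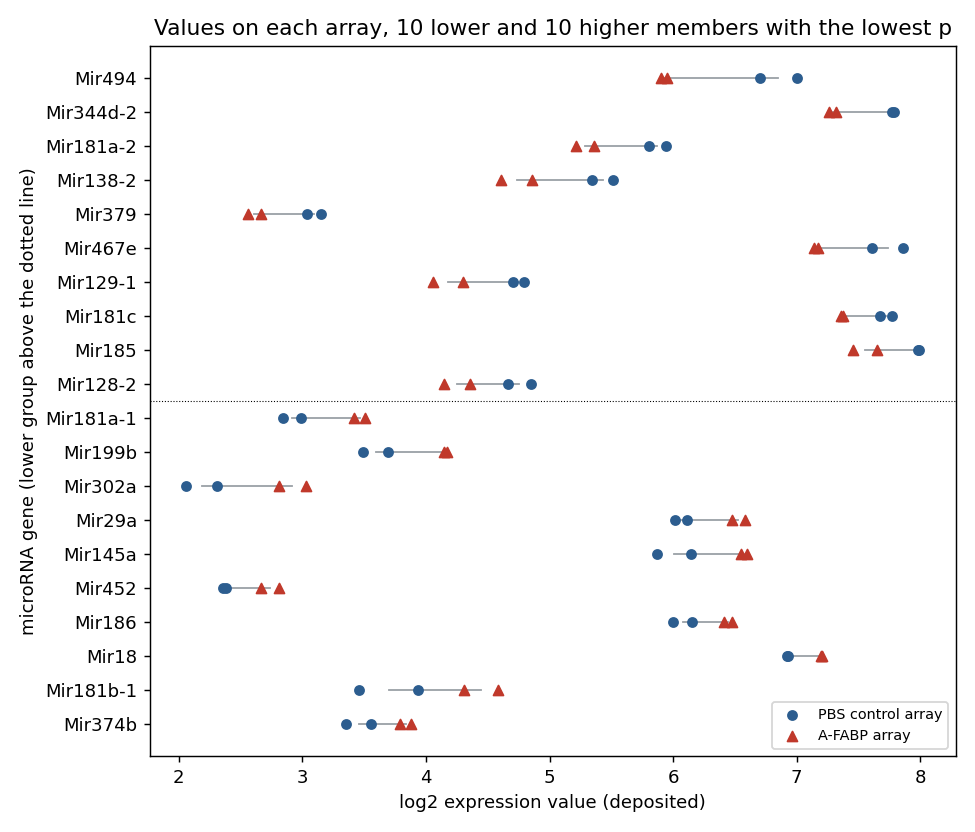
Deposited log2 values (horizontal axis) on each array of the 10 lower members (above the dotted line) and the 10 higher members (below it) with the lowest unadjusted p. Triangles are A-FABP arrays, circles are PBS arrays and grey lines join the group means. The groups are apart in every line shown, which the choice of the lowest p favours, and Mir494 spans 5.90 to 7.003.

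The miR-181 family gave values on both sides at different loci. Its members share the seed printed above, and microRNAs of this family are known for roles in lymphocyte development. On chromosome 1, Mir181a-1 read 3.51 and 3.42 with A-FABP against 2.84 and 2.99 with PBS, a log2 difference of 0.55 ± 0.10. Its neighbour Mir181b-1 read 4.58 and 4.31 against 3.46 and 3.94 (0.75 ± 0.21, the most positive difference among the members). Both genes of this locus lay higher with A-FABP, without overlap. On chromosome 2, Mir181a-2, which encodes the identical mature miR-181a-5p, read 5.21 and 5.36 against 5.94 and 5.80 (-0.59 ± 0.10). Its neighbour Mir181b-2 read 4.55 and 4.77 against 4.79 and 5.32 (-0.40 ± 0.22). Both genes of the second locus lay lower. On chromosome 8, Mir181c read 7.37 and 7.36 against 7.77 and 7.67 (-0.36 ± 0.08), and Mir181d read 8.41 and 8.23 against 8.61 and 9.08 (-0.53 ± 0.19). All 4 members of the chromosome 2 and 8 loci had A-FABP arrays below the controls. Over all genes, the groups did not overlap for 27.5% on the lower side and 26.0% on the higher side. Differences between the loci were not tested, and 2 of the 6 genes were above 0 under each alternative that kept all 6. Only Mir181c and Mir181d were bright enough for the filter on dim probe sets, and both lay below 0 there.

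Other gene copies with a mature sequence in common also lay on different sides of 0. There were 20 sets of 2 or 3 loci that encode an identical mature sequence. The members of a set lay on the same side of 0 in 6 sets and on both sides in 14. Over the alternatives that kept all 20 sets, 12 to 15 had both signs, the lowest count being without A-FABP replicate 1. Several of these signs rest on differences smaller than their SE, as for Mir128-1 (-0.042 ± 0.26), Mir30c-2 (-0.053 ± 0.094) and Mir9-3 (-0.014 ± 0.12), each of which turned under some alternatives. Mir138-2 stood at -0.70, whereas Mir138-1 read 4.802 and 5.13 with A-FABP against 5.07 and 4.58 with PBS, a difference of 0.14 ± 0.22 with overlapping groups, which turned to -0.10 without PBS control replicate 2 and to -0.024 without A-FABP replicate 2. Mir199b stood at 0.57, whereas Mir199a-1, which shares its 3p arm, read 7.21 and 7.04 against 7.18 and 7.42 (-0.18 ± 0.13). Mir9-2 lay at 0.53 ± 0.18 and Mir9-1 at -0.35 ± 0.13, and the groups did not overlap in either. Mir365-1 lay at 0.29 ± 0.10 and Mir365-2 at -0.53 ± 0.35. Copies on the same side included Mir218-1 (-0.83 ± 0.32) and Mir218-2 (-0.33 ± 0.12), from introns of Slit2 and Slit3. Mir218-1 read 3.75 and 3.87 with A-FABP against 5.06 and 4.22 with PBS, so its controls were 0.85 apart. Mir129-1 (-0.57) and Mir129-2 (-0.26 ± 0.10) also lay on the same side.

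**Figure D2:**
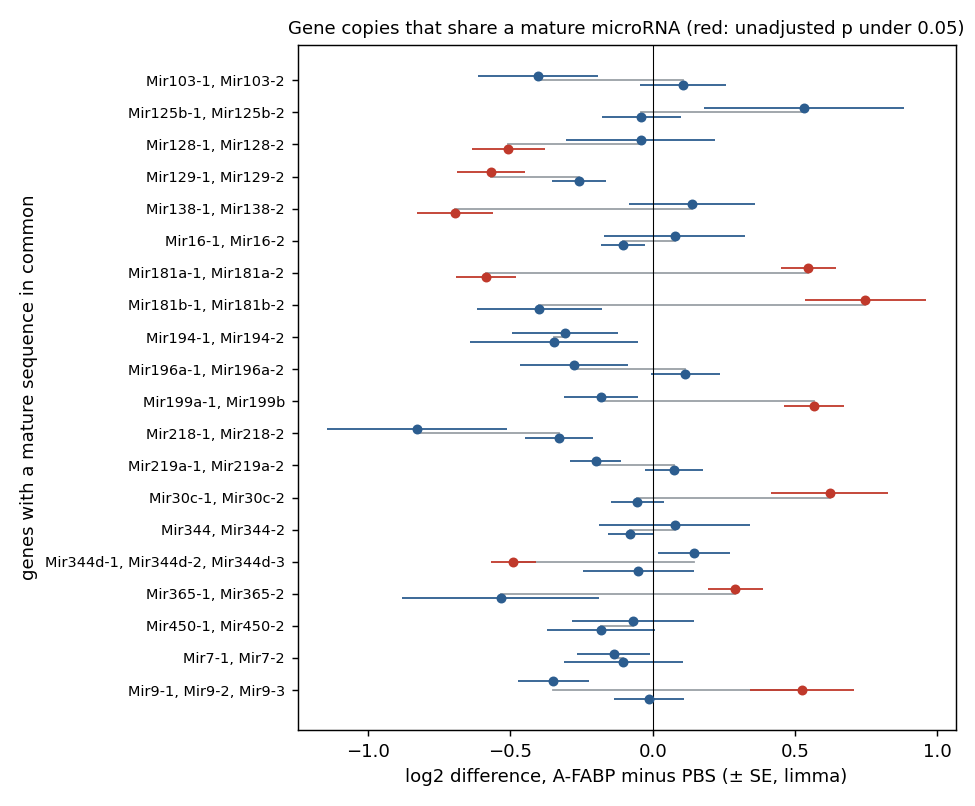
Log2 differences (horizontal axis, A-FABP minus PBS) with limma SE for the 20 sets of microRNA genes that encode an identical mature sequence, the first named gene uppermost in each set. Red marks an unadjusted p under 0.05. In 14 sets the points fall on both sides of 0, with Mir181a-1 at 0.55 and Mir181a-2 at -0.59.

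Mir494 belongs to the microRNAs of the imprinted Dlk1-Dio3 domain, which are expressed from the maternal chromosome as part of long noncoding transcripts. Of 24 members there, 15 lay below 0 and 9 above (median log2 difference -0.09). At an unadjusted p under 0.05, 5 were lower and 1 higher, where the shares over all genes were 8.24% and 4.81%. Mir379, which opens the main cluster at -6.26 kb from Mir494, read 2.66 and 2.56 with A-FABP against 3.15 and 3.04 with PBS (-0.48 ± 0.09). Mir380 read 3.27 and 3.26 against 3.55 and 3.69 (-0.35 ± 0.09), and Mir377 lay at -0.39 ± 0.12. These are dim values. The groups did not overlap, which was so for 27.5% of all genes on the lower side. A second probe set of Mir380 lay at 0.16. Those of Mir299a (-0.23) and Mir409 (-0.68), also counted here, had the opposite sign to the probe set used. Mir370, at -97.1 kb from Mir494, read 4.34 and 4.17 against 5.27 and 4.71 (-0.73 ± 0.22). Mir376c, 7.40 kb after Mir494, was the higher one, at 2.15 and 2.54 against 1.91 and 1.88 (0.45 ± 0.16). Immediately before Mir494, Mir329 lay at 0.51 ± 0.19 with A-FABP arrays at 6.45 and 6.25 and controls at 6.07 and 5.62. Some neighbours in the cluster, such as Mir329 and Mir494, stood on opposite sides. Others, such as Mir411 and Mir299a, stood on the same side. Of the 20 members in this cluster, 11 were below 0 and 9 above. Of the other transcripts of the domain, Meg3 lay at -0.16 ± 0.16 and Rian at -0.09 ± 0.20. The imprinted coding genes Dlk1 and Dio3 lay at -0.29 ± 0.11 and -0.41 ± 0.15, with mean levels of 6.24 and 4.85. Of all genes, 6112 of 8233 at levels from 5 up to 7 and 1932 of 2729 from 4 up to 5 lay below 0. The probe set shared by Mir134 and the noncoding gene Mirg, counted for neither, lay at -0.36 ± 0.12. Other probe sets of Mirg lay above 0. The one shared with Mir485 lay at 0.17 ± 0.09, and the one shared with Mir369, Mir410 and Mir412 at 0.03 ± 0.09.

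**Figure D3:**
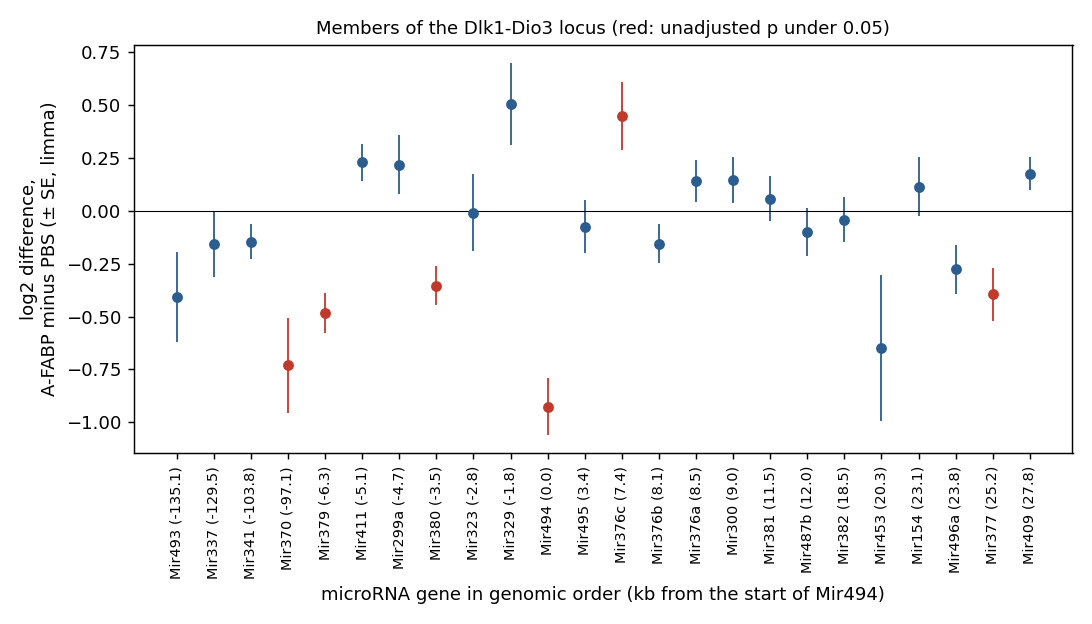
Log2 differences (vertical axis, A-FABP minus PBS, with limma SE) of the 24 members of the Dlk1-Dio3 domain in genomic order, labelled with the distance in kb from the start of Mir494. Red marks an unadjusted p under 0.05. Mir494 at -0.93 stands between Mir329 at 0.51 and Mir495 at -0.07.

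Among the hairpins used, without chromosome 18, there were 36 groups of members on the same strand within 10 kb. Of these, 18 groups had all members on one side and 18 had both. In the miR-17-92 cluster on chromosome 14, which promotes proliferation in many tumours, the 4 members measured alone lay above 0, though Mir17 (0.063 ± 0.18) and Mir19a (0.096 ± 0.13) by less than their SE. Mir17 lay at -0.17 without A-FABP replicate 2 and Mir19a at -0.029 without PBS control replicate 1. Mir18 read 7.19 and 7.20 with A-FABP against 6.93 and 6.92 with PBS (0.27 ± 0.08), and Mir20a read 5.57 and 5.92 against 5.13 and 5.52 (0.41 ± 0.20). With its paralogous clusters, 4 of 10 members lay below 0 and 6 above, and 1 was higher at an unadjusted p under 0.05 (4.81% of all genes). Mir92-2, of the X-linked paralogous cluster, lay at -0.52 ± 0.22. The 4 measured members of the miR-200 family, which maintains the epithelial state, all lay below 0 without overlap, from -0.19 to -0.62. Such an order was found for 27.5% of all genes, and for 44.6% of genes at levels from 5 up to 6, where Mir200a and Mir200b lie and where the median of all genes was -0.15. Mir200c read 3.998 and 4.66 against 4.74 and 5.16 (-0.62 ± 0.29), and Mir200a read 5.60 and 5.43 against 5.71 and 5.72 (-0.20 ± 0.10). None of the 4 had an unadjusted p under 0.05, and 9 of 12 mammary epithelial markers also lay below 0 (median -0.10). These markers had a median level of 6.01. Of all genes at levels from 5 up to 7, 6112 of 8233 lay below 0 (median -0.13). Whether these markers bear on the family's values was not tested.

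In the remaining groups, few members stood apart. The miR-34 family with its miR-449 relatives, known as p53 targets or as microRNAs of ciliated cells, had 4 of 6 members below 0, between -0.13 and 0.05. It includes Mir449b, the only member above a level of 9, at 12.47 and 12.27 with A-FABP against 12.53 and 12.45 with PBS (-0.12 ± 0.11). Of 8 inflammation-linked members, 5 lay below 0 and 3 above. Mir146, an NF-kB target, lay at 0.12 ± 0.08 and was dim, at 2.42 and 2.44 against 2.31 and 2.31. Mir155 has no probe set of its own. The probe set it shares with its host transcript lay at 0.29 ± 0.08, at 7.40 and 7.47 against 7.15 and 7.15 (limma adjusted p = 0.3004). The 8 muscle-linked members had no unadjusted p under 0.05 and levels from 1.90 to 5.77. Of 14 members of the Sfmbt2 intron cluster and relatives, 5 lay below 0 and 9 above, with Mir466n at 0.69 ± 0.21 (4.03 and 4.35 against 3.73 and 3.27) and Mir467e as the lower one named above. These genes are near-identical copies, so signal may be split or shared among them. A brighter probe set shared by Mir466d and Mir466n read 7.29 and 6.91 against 6.96 and 7.03 (0.11 ± 0.16), with overlapping groups. The 6 members of the miR-15/16 family ranged from -0.12 to 0.13, and the 6 of the miR-30 family from -0.47 to 0.62. Mir30c-1 led the latter, at 5.62 and 5.41 against 5.14 and 4.64.

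The differences of members depended on the level in another way than those of other genes. Of 26 members with a mean log2 value of 7 or above, 22 lay below 0 with a median difference of -0.15. Over all 9161 genes at that level, 27.7% lay below 0 and the median was 0.06. In 15 of these 26 members (57.7%) the A-FABP arrays were under the controls without overlap, and in 1 they were over them, where the shares over all genes at that level were 12.9% and 47.1%. Under median centring, cyclic loess, repeated quantile normalization and removal of the level trend, 21 to 22 of the 26 lay below 0, and the shares of all such genes below 0 were between 12.6% and 45.1%. The level of 7 was chosen with earlier results of these data known, and the difference from other genes was not tested. Mir483, from an intron of Igf2, read 7.67 and 7.93 with A-FABP against 8.29 and 8.65 with PBS (-0.66 ± 0.18). Mir375, known from pancreatic islets and luminal epithelium, read 7.35 and 6.96 against 7.42 and 7.76 (-0.44 ± 0.20). Mir210, the microRNA most regularly induced by hypoxia, read 8.28 and 8.27 against 8.42 and 8.45 (-0.16 ± 0.08). Mir27a was closer to its controls, at 8.28 and 8.21 against 8.31 and 8.39 (-0.10 ± 0.08). At levels from 5 up to 7 the order was reversed: 79 members had a median of -0.04, against -0.13 over 8233 genes. From 4 up to 5 the medians were -0.09 for 54 members and -0.11 for 2729 genes. Under 4, 34 of 86 members lay below 0 (median 0.06), against 1037 of 2057 genes (median -0.002). Of those 86 members, 8 were higher and 3 lower at an unadjusted p under 0.05, against 111 and 115 of the 2057 genes. MicroRNA genes numbered 500 and above, which are not members, had 27 of 36 below 0 at levels of 7 and above, with a median of -0.20. Bright probe sets named for microRNA genes of both number ranges thus lay below 0 more often than not.

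**Figure D4:**
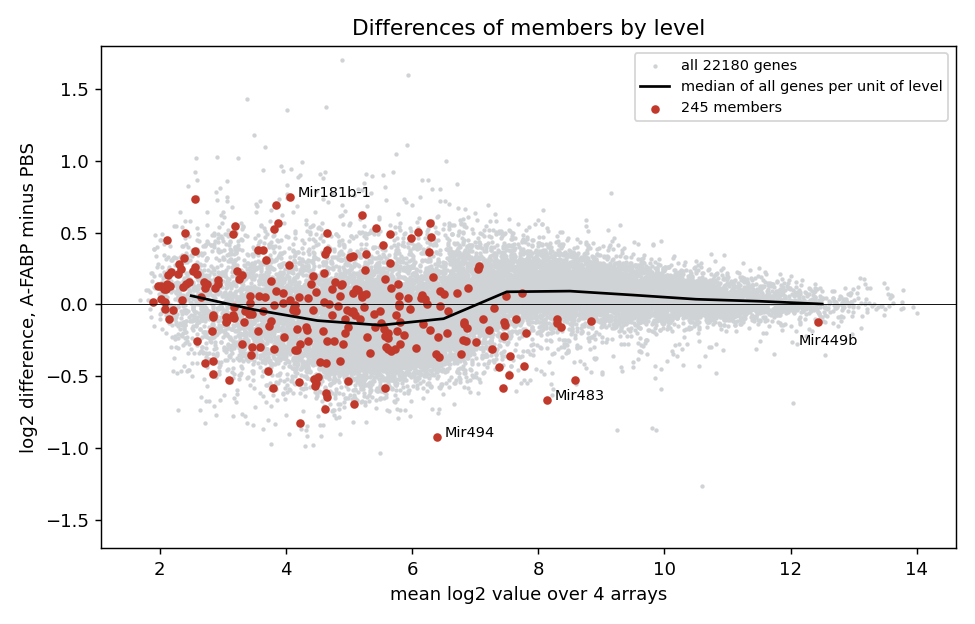
Log2 difference (vertical axis, A-FABP minus PBS) against the mean log2 value over 4 arrays (horizontal axis) for the 245 members (red) and all 22180 genes (grey), with the median of all genes in steps of 1 (black line). To the right of 7 the black line lies above 0, whereas 22 of 26 members lie below 0.

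The base composition of the hairpins moved with both the level and the difference. RefSeq held hairpins for 207 members, with a GC content from 29.1% to 69.2% and a median of 47.2%. Across these members GC content correlated with the level (Pearson's r = 0.58, Spearman's rho = 0.54) and with the difference (r = -0.26, rho = -0.31). This is a description across genes of the same 4 arrays, which are not independent. In the third of hairpins with the least GC (up to 44.2%), 29 of 69 members lay below 0 with a median difference of 0.05 and a median level of 3.63. In the third with the most GC (from 51.1%), 50 of 69 lay below 0 with a median difference of -0.16 and a median level of 5.58. The 19 bright members whose hairpin was used had a median GC content of 57.6%. The part of composition or brightness in the differences was not tested. Mir494, with 35.3% GC, is among the AU-rich hairpins.

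Many members lie in introns of protein-coding hosts. For 39 members with a measured host gene (35 hosts), 22 pairs had the same sign, and the differences correlated across pairs at r = 0.37 (rho = 0.29), where some pairs share a host and all share the arrays. Mir211 lay at -0.34 ± 0.11 and its host Trpm1, a cation channel of melanocytes, at -0.25 ± 0.09. Mir128-2 lay at -0.51 and its host Arpp21 at -0.31 ± 0.12. Mir483 lay at -0.66 and Igf2, a growth factor, at -0.38 ± 0.28. The hosts Trpm1, Arpp21 and Igf2 had mean levels of 5.68, 4.70 and 6.07. Of all genes, 1932 of 2729 at levels from 4 up to 5 and 6112 of 8233 from 5 up to 7 lay below 0. Mir186 lay at 0.36 and Zranb2 at 0.12 ± 0.08. Other pairs were apart: Mir26b read 4.12 and 3.76 against 4.54 and 4.42 (-0.54 ± 0.15), whereas its host Ctdsp1, a phosphatase, lay at 0.06 ± 0.09. Of the 35 hosts, 2 were lower at an unadjusted p under 0.05 and 0 higher, against 8.24% and 4.81% of all genes.

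The genes that make and use microRNAs showed small differences, mostly above 0. Of 14 measured genes of biogenesis 4 lay below 0 and 10 above, with a median of 0.09. Of 11 measured effector genes 2 lay below 0 and 9 above, with a median of 0.09. No gene of either list had an unadjusted p under 0.05. Ddx5, an RNA helicase of the Drosha complex, read 11.92 and 11.86 with A-FABP against 12.08 and 12.23 with PBS (-0.26 ± 0.10). Dicer1 read 8.95 and 8.90 against 8.75 and 8.65 (0.22 ± 0.08). Tarbp2, a partner of Dicer, lay at 0.20 ± 0.09, Xpo5 at 0.16 ± 0.08, and Ago2, the Argonaute that cleaves targets, at -0.04 ± 0.08. The median level was 8.96 for the biogenesis list and 9.41 for the effectors, and all genes at levels of 7 and above had a median difference of 0.06.

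For 7 of the members with more than 1 probe set besides Mir466b-2, the probe sets could be compared. Mir9-1 (-0.35 and -0.16), Mir191 (-0.14 and -0.25) and Mir376a (0.14 and 0.13) had the same sign at both. Mir299a (0.22 and -0.23), Mir378a (-0.32 and 0.07), Mir380 (-0.35 and 0.16) and Mir409 (0.18 and -0.68; -0.25 as their mean) did not. The second Mir409 probe set read 4.62 and 3.96 with A-FABP against 4.73 and 5.21 with PBS. For Mir466b-2, 6 of its 7 probe sets hold identical values. Repeated measurements of a gene therefore lay on different sides of 0 for 4 of these 7 members.

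The 5 genes whose values over the 4 arrays were most like those of Mir494, among 294 other genes that differed at least 1.5-fold, were AY702102, Myh13, Olfr825, Gm6436 and Olfr1101, with Pearson's r from 0.997 to 0.999. With 4 arrays a high correlation is easily reached, and 14 of the 294 genes exceeded 0.99.

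For the series as a whole, replicates correlated across probe sets at r = 0.991 in both groups and arrays of different groups at 0.985 to 0.989. Krt8, a luminal keratin, was bright (8.79) but Epcam was dim (4.79), and Cdh1 lay at 6.29. Of markers of other cell types, 4 of 6 leukocyte, 5 of 6 endothelial, 5 of 7 adipocyte and 2 of 7 fibroblast markers were below the median of all probe sets. Ptprc (4.22), Pecam1 (5.81) and Adipoq (5.15) were among the dim ones, whereas the macrophage marker Cd68 (12.79) and the fibroblast markers Pdgfra (11.2) and Col3a1 (9.65) were bright. At an unadjusted p under 0.05, 2 leukocyte markers and 1 each of the fibroblast, endothelial and adipocyte lists were lower. Of the mammary epithelial markers 0 were lower, and 0 markers of any list were higher. The shares over all genes were 8.24% lower and 4.81% higher. Of the 6 leukocyte markers 5 lay below 0, with per-array means of the list at 6.47 and 6.35 with A-FABP against 6.63 and 6.64 with PBS. The list had a median level of 5.35, and 78.2% of all genes at levels from 5 up to 6 lay below 0 (median -0.15). The part of the marker genes in the members' values was not tested.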

How the data were processed

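RNA from EO771 cells was hybridised to 4 single-colour arrays, 2 per group, grouped by title. The deposited table holds log2 expression values, which the authors made with RMA and Partek 6.6, per the submitters' processing notes. The array design and the treatment time were left unstated by the labels. The values were fitted with limma 3.58.1 in R 4.3.3 (lmFit, eBayes; 2 residual and 1.91 prior degrees of freedom) over 41345 probe sets, without a filter, and p-values were two-sided and adjusted by Benjamini-Hochberg. Every adjusted p and unadjusted p in the text is from limma. An exact permutation test of 2 arrays against 2 cannot give a p below 0.33. Same-numbered replicates did not deviate together (r = -0.0089), so they were not paired. The fit was tested on simulated data, where 5.17% of 41145 unchanged probe sets had an unadjusted p under 0.05. An adjusted p under 0.05 was reached by 2 of them. The simulated noise was independent, with variances drawn from the fitted prior and no shift by level. A rate near the threshold was therefore built in, and the simulation cannot show the error rate in these data. In the deposited values 6258 of 41345 probe sets had an unadjusted p under 0.05. Sequences and positions are from RefSeq tables (GRCm38.p6) and were matched by symbol. Named are Mir494, up to 10 members per direction with the lowest p under 0.05, members with several probe sets, up to 4 members per group, and the 5 genes most like Mir494. The gene copies, bright members and host pairs named were chosen after their values were seen. The members, lists and level bins were chosen with earlier results of these data known.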

Additional observations from a re-analysis of the deposited data

How the results depend on the processing

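The count of members at an adjusted p under 0.05 stayed at 0 under every alternative run, and Mir494 kept its direction, with differences from -1.08 to -0.78 when 1 array was left out. With the replicate block its adjusted p was 0.377, and the block gave 20 lower and 15 higher members at an unadjusted p under 0.05, against 18 and 19 without it. The lower count was 12 to 19 and the higher count 11 to 16 when 1 array was left out. The higher count was 11 without PBS control replicate 2 and 12 without PBS control replicate 1. Limma's trend and robust settings gave 12 higher members, and the filter to probe sets above the median level gave 5, since fewer members are then tested. The median over the members turned to 0.025 under median centring, which moves all genes by the same amount, and was -0.13 under the filter. The median of members at 7 and above was -0.088 under median centring and -0.24 to -0.16 with 1 array left out, the former without A-FABP replicate 1. The median of the microRNA machinery genes was 0.15 under median centring, 0.046 under cyclic loess, 0.052 under repeated quantile normalization and 0.046 with the level trend removed. Of 900 values of 73 named members under alternatives, 876 kept their direction and 24, from 9 members, did not. Limma's trend and robust settings, the replicate block and the filter leave the differences unchanged, so they could not turn a direction. Many of the named members were also picked for a low p in these data. The count is therefore no measure of how stable the directions are. Under median centring, cyclic loess, repeated quantile normalization and removal of the level trend, Mir128-1 lay at 0.023, 0.070, 0.019 and 0.066, Mir30c-2 at 0.012, 0.061, 0.012 and 0.058, and Mir9-3 at 0.051, 0.042, 0.024 and 0.054. With 1 array left out, Mir128-1 ranged from -0.39 to 0.30, Mir138-1 from -0.10 to 0.38, Mir17 from -0.17 to 0.29, Mir194-2 from -0.72 to 0.022, Mir19a from -0.029 to 0.22, Mir29b-1 from -0.032 to 0.28, Mir30c-2 from -0.11 to 0.0025 and Mir9-3 from -0.14 to 0.12. Mir409 lay at -0.25 as the mean of its probe sets. The cause was not tested. The number of arrays and the dim signal of most members limit the precision.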
